A study of Bos taurus with 40 samples.

Results

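Granins and the enzymes that process prohormones were described in 4 cattle tissues. The genes were chosen by name, as 10 genes of the regulated secretory pathway. Of these, 9 were found among the 13570 genes of the deposited tables, and all 9 were among the 13148 genes with at least 1 read that were tested. They were the granins CHGA, CHGB, SCG2, SCG3 and SCG5 and the enzymes PCSK1, PCSK2, CPE and PAM. VGF had no row in the tables and was not analysed here. The study asked which genes differ between the sexes in metabolic tissues and the pituitary gland. RNA-seq libraries came from liver, abdominal fat, intact longissimus dorsi muscle and pituitary gland of 10 Korean cattle. The 5 cows and 5 bulls each gave 1 library per tissue, 40 in all. The animals carried no stated treatment, were older than 22 months at slaughter, and had a carcass weight of 353 ± 36 kg. Each pituitary sample was a whole-tissue RNA extract, so lobes and cell types were not separated, and fewer cells of a type cannot be told apart from less RNA per cell.

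Endocrine cells store peptide hormones in dense-core granules. Granins are acidic proteins that aggregate with hormones as the granules form, and several of them are cut into peptides of their own. Prohormones are cleaved in the granule by the convertases PCSK1 and PCSK2, trimmed at the exposed basic residues by carboxypeptidase E (CPE), and amidated at the C-terminus by peptidylglycine alpha-amidating monooxygenase (PAM). In the pituitary gland this pathway serves hormones such as the POMC-derived peptides, while prolactin and growth hormone are stored in the same kind of granule.

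The libraries held 5173092 to 19165864 reads on genes (median 10005607). Levels are CPM, reads per 1000000 reads on genes, scaled by TMM factors, so a level is relative to the other genes of its library. The tests used edgeR, with an FDR adjusted P-value under 0.05 as the threshold. One library went against its label: the liver library labelled bull 3 held 1401 CPM of XIST and no read of USP9Y, DDX3Y or ZFY. Its closest liver library was that of cow 4 (Pearson's r of log2(CPM + 1) 0.993, chi-square per gene 15.8). The next lowest chi-square per gene between liver libraries was 45.8, for cows 1 and 2. Whether the liver libraries labelled bull 3 and cow 4 came from the same animal was not tested. Another library stood apart: the fat library labelled bull 5 held 1.39 CPM of XIST and 1.78 CPM of USP9Y. This was the lowest level of USP9Y among bull libraries other than the liver library labelled bull 3. The tests over all tissues were repeated without the liver library labelled bull 3 and without the fat library labelled bull 5. The test of sex within liver was repeated without bull 3, and that within fat without bull 5. Levels, shares, correlations and counts over gene lists were not repeated without these libraries. Every marker of the labelled tissue had reads in every library of that tissue, for 5 liver, 5 fat, 6 muscle and 8 pituitary markers. Reads alone do not check a label, since the 5 liver markers also had reads in every other library. Their summed level was at least 83630 CPM in liver and at most 450 elsewhere, in fat. Fat markers summed to at least 6414 CPM in fat and at most 799 elsewhere, in muscle. Muscle markers summed to at least 92757 CPM in muscle and at most 150 elsewhere, in liver.

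All 9 genes were higher in the pituitary gland than in liver, in fat and in muscle. For 8 of them no library of another tissue reached the lowest pituitary gland. The exception was PAM, whose fat levels overlapped those of the pituitary gland. The share of all tested genes separated in this way was not counted, so the 8 of 9 has no background beside it. The call rested on the quasi-likelihood test with tissue and sex as terms, 10 libraries per tissue. Against liver, 9 of 9 were called higher, where 35.1% of all tested genes were. The same 9 of 9 were called higher against fat, beside 32.8% of all genes, and against muscle, beside 32.5%. Their median log2 fold change was 10.14 against liver, 8.94 against fat and 9.70 against muscle, while the median over all tested genes was 0.12, 0.02 and 0.03. Library sizes without TMM factors moved the median of all genes to 0.92, 0.13 and 0.89. With them 7626 genes were higher and 2081 lower in the pituitary gland than in liver, in place of 4616 and 3862, and 7299 were higher and 1942 lower than in muscle, in place of 4271 and 4148. All 9 stayed called in each of these 3 comparisons under every alternative, the left-out libraries included.

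**Figure D1:**
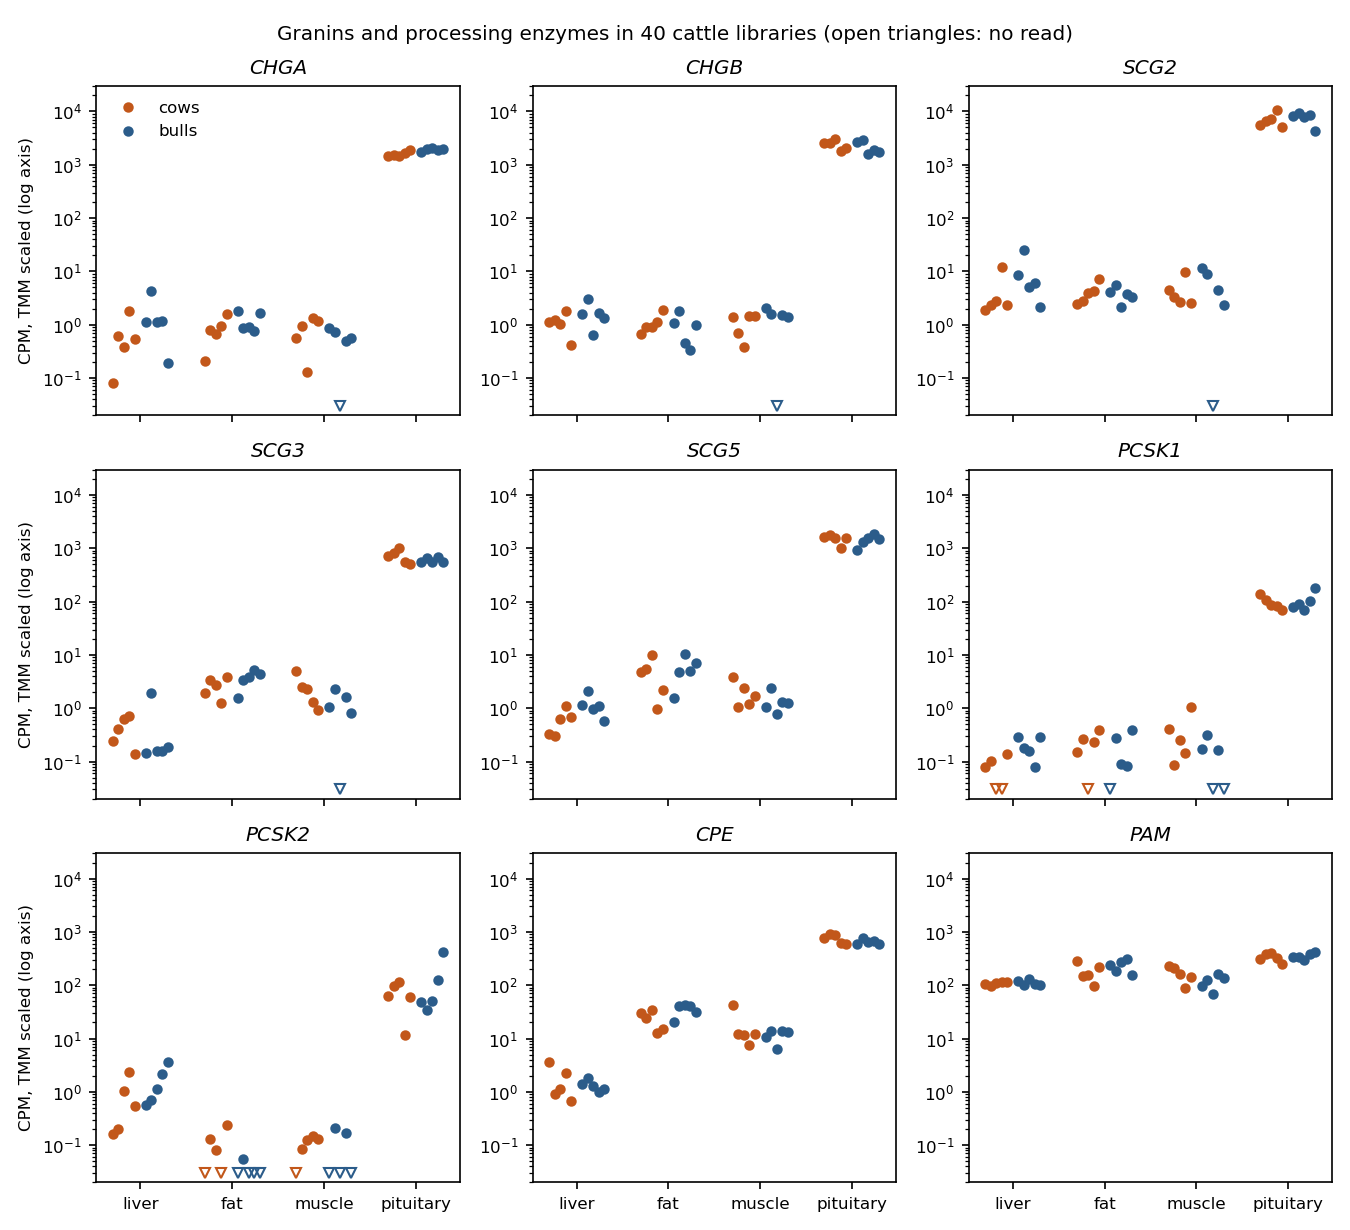
Level of each gene in each of the 40 libraries, as TMM-scaled CPM on a log axis, by tissue, with cows in orange and bulls in blue. Open triangles at the bottom mark libraries without a read. The pituitary glands lie above all other libraries for 8 of the 9 genes, and PAM spans less than the others, from 69.5 to 418 CPM. The share of all genes separated in this way was not counted.

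Shares of reads depend on transcript length as well as on level, and are given to show the depth behind the values. In the pituitary gland the 9 genes together held 1.53% to 2.41% of the reads on genes, with a median of 2.07%, and the 5 granins alone held 1.40% to 2.24%. The 4 enzymes held 0.122% to 0.249%. For scale, 7 pituitary hormone genes (PRL, GH1, POMC, CGA, FSHB, LHB and TSHB) held 14.1% to 35.4% in the same libraries.

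CHGA encodes chromogranin A, a granule matrix protein and precursor of several peptides. Its level in the 10 pituitary glands was lowest at 1436, median 1815 and highest at 2080 CPM, a mean of 1759 ± 225 (SD, n = 10). In liver it ranged from 0.0808 to 4.30 CPM with a median of 0.870, in fat from 0.206 to 1.81 with a median of 0.901, and in muscle from 0 to 1.33 with a median of 0.644. CHGA had the smallest relative spread between pituitary glands of the 9 genes, with a coefficient of variation of 12.8%. Its log2 fold change was 10.72 (SE 0.36) over liver, 10.78 (SE 0.34) over fat and 11.23 (SE 0.39) over muscle.

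CHGB, chromogranin B, stood at 1594 to 3092 CPM in the pituitary glands, with a median of 2291. Its liver, fat and muscle levels reached no more than 3.04, 1.89 and 2.08 CPM. Cow 3 had the highest pituitary level and bull 3 the lowest. The log2 fold changes were 10.70 (SE 0.29), 11.11 (SE 0.28) and 10.88 (SE 0.30) over liver, fat and muscle.

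SCG2, secretogranin II, is the precursor of secretoneurin. Pituitary levels ran from 4235 CPM in bull 5 to 10739 CPM in cow 4, with a median of 7551. In liver the lowest, median and highest levels were 1.86, 3.99 and 24.7 CPM, in fat 2.11, 3.82 and 7.08, and in muscle 0, 3.92 and 11.5. The pituitary gland exceeded liver by a log2 fold change of 10.14 (SE 0.40), fat by 10.85 (SE 0.40) and muscle by 10.52 (SE 0.41).

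SCG3, secretogranin III, binds chromogranin A and cholesterol-rich granule membranes. It was measured at 509.8 to 1010 CPM in the pituitary glands, with a median of 611. Outside the pituitary gland its level differed by tissue: liver had a median of 0.216 CPM, muscle 1.49 and fat 3.41. Its fold over liver, 10.56 on the log2 scale (SE 0.41), was therefore larger than its folds over fat, 7.69 (SE 0.31), and muscle, 8.47 (SE 0.33).

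SCG5 encodes 7B2, the chaperone that PCSK2 needs to become active. Its pituitary levels were 921 to 1824 CPM, with a median of 1537. Liver had a median of 0.825 CPM, muscle 1.28 and fat 4.88, and the fat libraries spread from 0.986 in cow 4 to 10.4 in bull 3. The log2 fold changes of the pituitary gland were 10.72 (SE 0.35) over liver, 8.13 (SE 0.30) over fat and 9.70 (SE 0.32) over muscle.

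PCSK1, the convertase PC1/3, starts the cleavage of many prohormones, POMC among them. The pituitary glands held 69.8 to 184 CPM, with a median of 88.1, and bull 5 was the highest. Elsewhere it was close to the limit of detection, which was set at 3 reads per library. Liver libraries had 0 to 3 reads and 11 in all, which gave a ratio of pituitary to liver of 807, with a 95% exact interval of 451 to 1617 that covers counting error only. Fat libraries held up to 5 reads and muscle libraries up to 8. The fitted log2 fold change was 8.94 (SE 0.38) over fat and 8.48 (SE 0.42) over muscle.

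PCSK2, the convertase PC2, carries cleavage further, as in the melanotroph products of POMC. It had the largest relative spread between pituitary glands, a coefficient of variation of 113%. The lowest level was 11.8 CPM in cow 4, the median 62.1 and the highest 414 in bull 5. Every liver library held PCSK2 reads, from 2 to 38 per library and 114 in all, and its liver level ran from 0.162 to 3.59 CPM. Fat had 7 reads over the 10 libraries, with none in 6 of them, and muscle also had 7, with none in 4. The ratio of pituitary to fat by these reads was 2117 (95% exact interval 1027 to 5266), and that of pituitary to muscle 1096 (532 to 2726). Over liver the fitted log2 fold change was 6.32 (SE 0.44).

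CPE, which removes the basic residues that convertases leave, was at 583 to 899.6 CPM in the pituitary glands, with a median of 651. The other tissues were ordered without overlap between liver and fat: liver ranged from 0.684 to 3.63 CPM and fat from 12.9 to 41.6. Muscle ranged from 6.35 to 41.8, and cow 1 alone accounted for the top value, since the next library had 14.1. The pituitary gland was higher than liver by a log2 fold change of 8.83 (SE 0.28), than fat by 4.57 (SE 0.25) and than muscle by 5.62 (SE 0.26).

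PAM is the one enzyme known to make C-terminal amides and is expressed well beyond endocrine glands. Its lowest, median and highest levels were 255, 338 and 418 CPM in the pituitary gland, 97.5, 204 and 305 in fat, 69.5, 140 and 232 in muscle, and 97.0, 107 and 131 in liver. Against fat, 8 of 10 pituitary glands lay above every fat library and 3 fat libraries lay within the pituitary range. The log2 fold change was 0.74 over fat (SE 0.18, FDR adjusted P-value 0.000571 in edgeR), 1.27 over muscle (SE 0.18) and 1.65 over liver (SE 0.18). Library sizes alone gave 0.86, 2.16 and 2.52. Liver was the tightest group, with a coefficient of variation of 9.12%.

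Among the 3 metabolic tissues, the genes differed in which tissue came next. Fat against liver called 5 of 9 genes, beside 64.3% of all genes. CPE (log2 fold change 4.25, SE 0.29), SCG3 (2.87, SE 0.42), SCG5 (2.59, SE 0.35) and PAM (0.91, SE 0.18) were higher in fat, and PCSK2 was lower (−4.32, SE 0.93). Muscle against liver called 4 of 9, beside 62.1% of all genes: CPE (3.21, SE 0.29), SCG3 (2.08, SE 0.44) and SCG5 (1.02, SE 0.38) were higher in muscle and PCSK2 lower (−3.53, SE 0.94). SCG5 lost this call without bull 5 (FDR adjusted P-value 0.0644 in edgeR) or without cow 1 (0.122). PAM did not pass in muscle against liver (0.38, SE 0.19, FDR adjusted P-value 0.069), but passed without bull 3 (0.0221) or without cow 4 (0.0321).

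Fat exceeded muscle in 4 of 9, beside 59.6% of all genes: SCG5 (log2 fold change 1.57, SE 0.33), CPE (1.05, SE 0.26), SCG3 (0.78, SE 0.34) and PAM (0.53, SE 0.18). The PAM call was lost without bull 1 (FDR adjusted P-value 0.0565) or bull 3 (0.0712), which left 2 genes called in each case. The SCG3 call was lost with any of 7 animals left out, its adjusted P-values then reaching 0.122, and at 0.0771 without the fat library labelled bull 5. CHGA, CHGB, SCG2 and PCSK1 did not pass in any of these 3 comparisons. Their order between liver, fat and muscle is therefore not established here, and it depends on the scaling. With library sizes alone CHGB, SCG2 and PCSK1 turned from lower to higher in fat than in muscle. In that setting CHGA passed in fat against muscle (1.26, FDR adjusted P-value 0.00536 in edgeR) and PCSK1 in fat against liver (1.22, 0.0438).

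Expressed as a percentage of the pituitary mean, the genes fell into different ranges. CHGA, CHGB and SCG2 stood at 0.0386% to 0.0929% of their pituitary mean in the 3 tissues. PRL, the prolactin gene, stood at 0.0601% in liver, 0.0408% in fat and 0.0574% in muscle, and GH1, the growth hormone gene, at 0.0622%, 0.0509% and 0.0523%. None of the 7 hormone genes exceeded 0.0665% in liver, 0.118% in fat or 0.101% in muscle, with POMC the highest in fat and muscle. SCG3 and SCG5 were at 0.0718% and 0.0617% in liver, at 0.478% and 0.359% in fat, and at 0.272% and 0.117% in muscle. PCSK2 was at 1.22% in liver, CPE at 0.218%, 4.15% and 2.04% in liver, fat and muscle, and PAM at 31.8%, 59.7% and 41.4%.

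**Figure D2:**
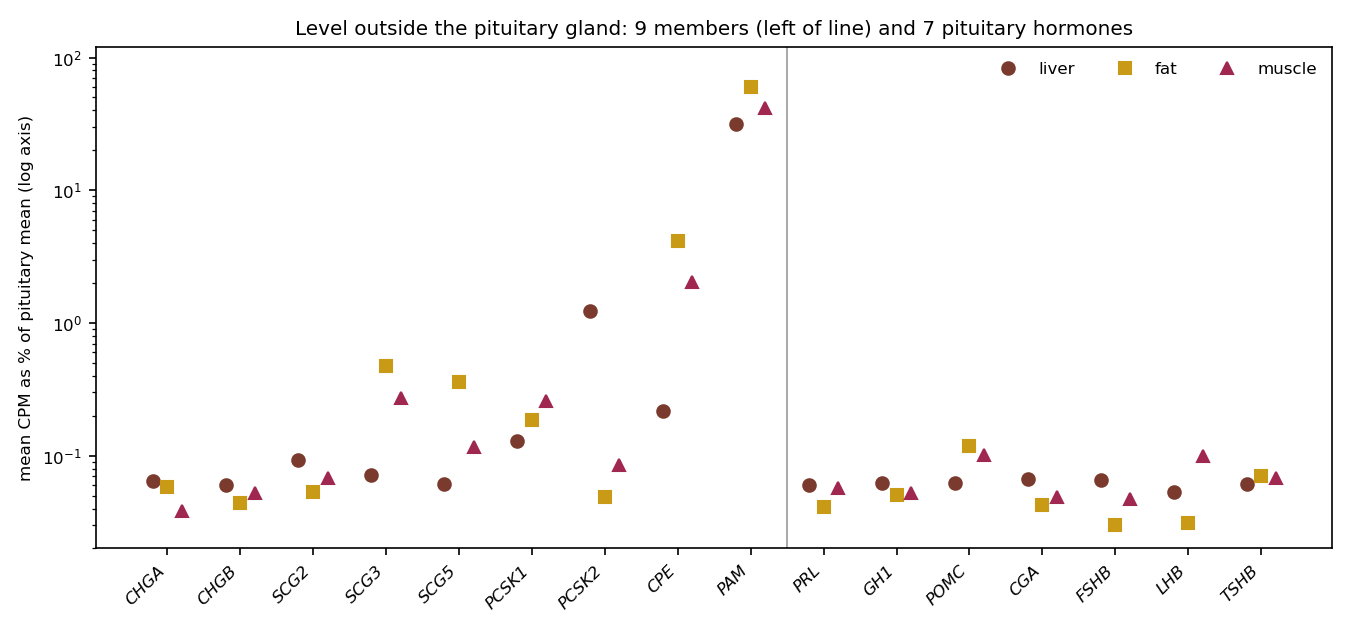
Mean level in liver, fat and muscle (10 libraries each) as a percentage of the pituitary mean, on a log axis, for the 9 genes and for 7 pituitary hormone genes. CHGA, CHGB and SCG2 lie between 0.0386% and 0.0929%, the 7 hormone genes reach no more than 0.118%, while CPE reaches 4.15% and PAM 59.7%.

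Reads of pituitary markers accompanied the low granin levels. The summed level of 8 pituitary markers ran from 14.8 CPM in cow 1 to 388 in bull 2 in liver, from 20.6 to 226 in fat, and from 20.4 in bull 3 to 203 in cow 4 in muscle, and from 82844 to 286085 in the pituitary gland. None of the 8 was without reads in all libraries of a tissue. Markers of other tissues were also present at low levels: 5 liver markers summed to a median of 49.2 CPM in the pituitary gland against 136462 in liver. Across the 10 liver libraries, log2(CPM + 1) of PRL correlated with that of SCG2 (Pearson's r 0.942, Spearman's rho 0.879), SCG5 (0.938 and 0.903) and CHGA (0.918 and 0.903). Their adjusted permutation p-values for r were 0.000270, 0.000742 and 0.000742 over 27 relations, chosen after the values were seen, and those for rho 0.00992, 0.00864 and 0.00864. Without the 2 libraries farthest from the median, r was 0.916, 0.969 and 0.891. In muscle, CHGB (r 0.914, rho 0.976), SCG2 (0.892 and 0.745) and CHGA (0.778 and 0.552) passed for r, with adjusted permutation p-values of 0.000270, 0.00351 and 0.0130. For rho only CHGB passed. Without the 2 farthest libraries, bull 3 among them each time, r fell to 0.760 for CHGB, 0.734 for SCG2 and 0.316 for CHGA. In fat, CHGA passed for r (0.824, adjusted permutation p 0.0149) but not for rho, and CHGB for rho (0.806, adjusted permutation p 0.0394) but not for r.

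The other relations did not pass for either measure, those of CHGB and SCG3 in liver among them (r 0.632 and 0.479, adjusted permutation p 0.128 and 0.336). SCG3, PCSK1, PCSK2, CPE and PAM passed with PRL in none of the 3 tissues, and SCG5 only in liver. For PAM, r ran from −0.440 to 0.355 and for CPE from −0.324 to 0.338. The muscle library of bull 3, the one with the fewest reads, held 1 read of PRL (0.264 CPM), 72 of POMC (19.0 CPM) and 3 of LHB. It held no read of CHGA, CHGB, SCG2, SCG3, PCSK1 or PCSK2, 3 reads of SCG5, 24 of CPE and 263 of PAM. Where the pituitary marker reads in liver, fat and muscle came from was not tested. Nerve is another tissue that carries granins. The sum of 7 Schwann cell and nerve markers was 10.3 to 24.7 CPM in liver, with a median of 12.4. In fat it was 8.70 to 73.3 CPM (median 17.3) and in muscle 25.5 to 70.2 CPM (median 52.6). The part of nerve in the SCG3 and SCG5 levels was not tested.

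**Figure D3:**
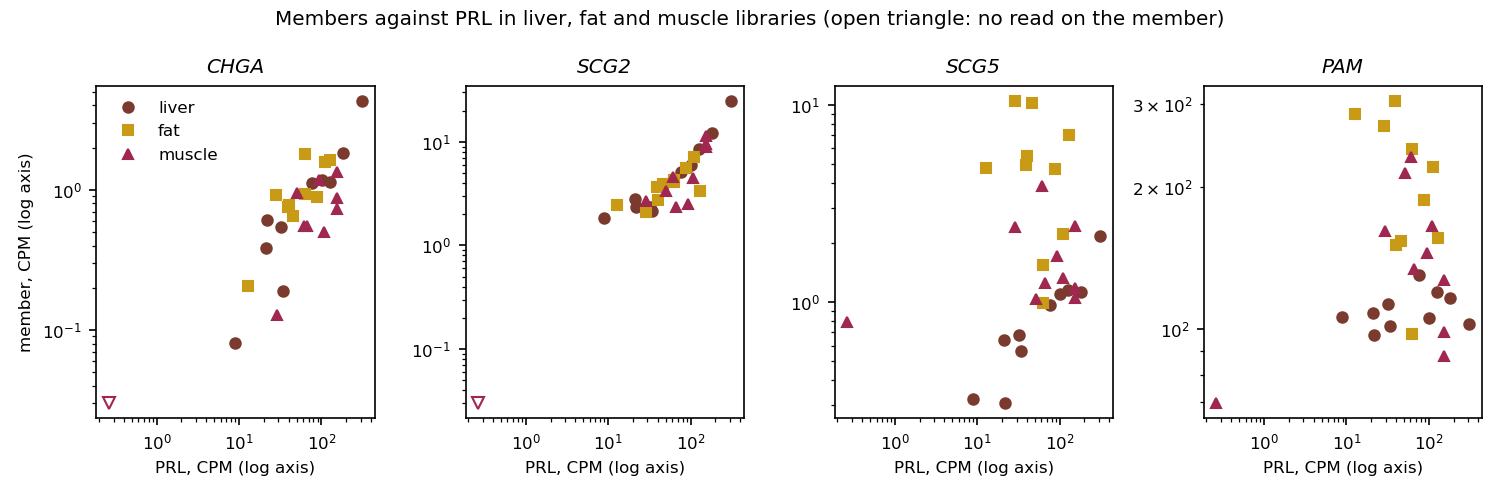
Levels of CHGA, SCG2, SCG5 and PAM against PRL, each as CPM on log axes, in the 10 liver, 10 fat and 10 muscle libraries. CHGA and SCG2 rise with PRL in liver (r 0.918 and 0.942), SCG5 lies higher in fat than in liver, and r for PAM is between −0.440 and 0.355 in the 3 tissues; the open triangle is the muscle library of bull 3 without a read.

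With all animals kept, no granin or processing enzyme was called different between cows and bulls in any tissue. The likelihood ratio test of edgeR in M1, the model of sex within 1 tissue, called 0 of 9 genes in liver, fat, muscle and pituitary gland, beside 0.175%, 0.114%, 0.517% and 0.745% of all genes. M2, the model of sex and tissue over all 40 libraries, called 0 of 9 beside 1.69% of all genes, and the interaction of sex and tissue 0 of 9 beside 0.335%. With so few genes called, 0 of 9 does not set these genes apart from the others. None of the 9 had an unadjusted p under 0.05 in any of these 6 tests, beside 6.88% to 16.7% of all genes. For 9 genes a count of 0 is near those shares, and the 6 tests share libraries. The quasi-likelihood test and DESeq2 also called none. A p that misses the threshold does not show that the levels were equal, and the intervals below give the differences that remain possible.

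In the pituitary gland, CHGA came nearest to separating the sexes. Cows 1 to 5 had 1461, 1554, 1436, 1633 and 1870 CPM and bulls 1 to 5 had 1760, 1940, 2080, 1914 and 1941. The 4 bulls other than bull 1 lay above all cows, but cow 5 lay above bull 1, so the sexes overlapped. The male to female log2 fold change was 0.28 (SE 0.17, interval −0.06 to 0.61, FDR adjusted P-value 0.636 in edgeR). It stayed between 0.24 and 0.34 with any animal left out, and was 0.14 with library sizes alone.

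PCSK2 had the widest interval. Cows 1 to 5 had 63.3, 95.2, 116, 11.8 and 60.9 CPM and bulls 1 to 5 had 49.5, 34.1, 50.9, 127 and 414. Only bulls 4 and 5 exceeded every cow, and 3 bulls lay below 4 of the cows. The log2 fold change was 0.97 (SE 0.62, interval −0.25 to 2.19, FDR adjusted P-value 0.644), and without bull 5 it was −0.07. PCSK1 had 139, 107, 85.6, 82.2 and 69.8 CPM in cows 1 to 5 and 80.5, 90.6, 70.9, 102 and 184 in bulls 1 to 5. Its log2 fold change of 0.12 (SE 0.27) became −0.17 without bull 5 as well.

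The other 6 genes had pituitary log2 fold changes between −0.26 and 0.10. SCG3 was at −0.26 (SE 0.21, interval −0.66 to 0.15), CPE at −0.20 (SE 0.19), CHGB at −0.15 (SE 0.22), SCG5 at −0.07 (SE 0.22), PAM at 0.09 (SE 0.18) and SCG2 at 0.10 (SE 0.27). The sexes as labelled overlapped for each of the 9 genes in each of the 4 tissues. The share of all genes with such an overlap was not counted, so this is not particular to the 9 genes.

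**Figure D4:**
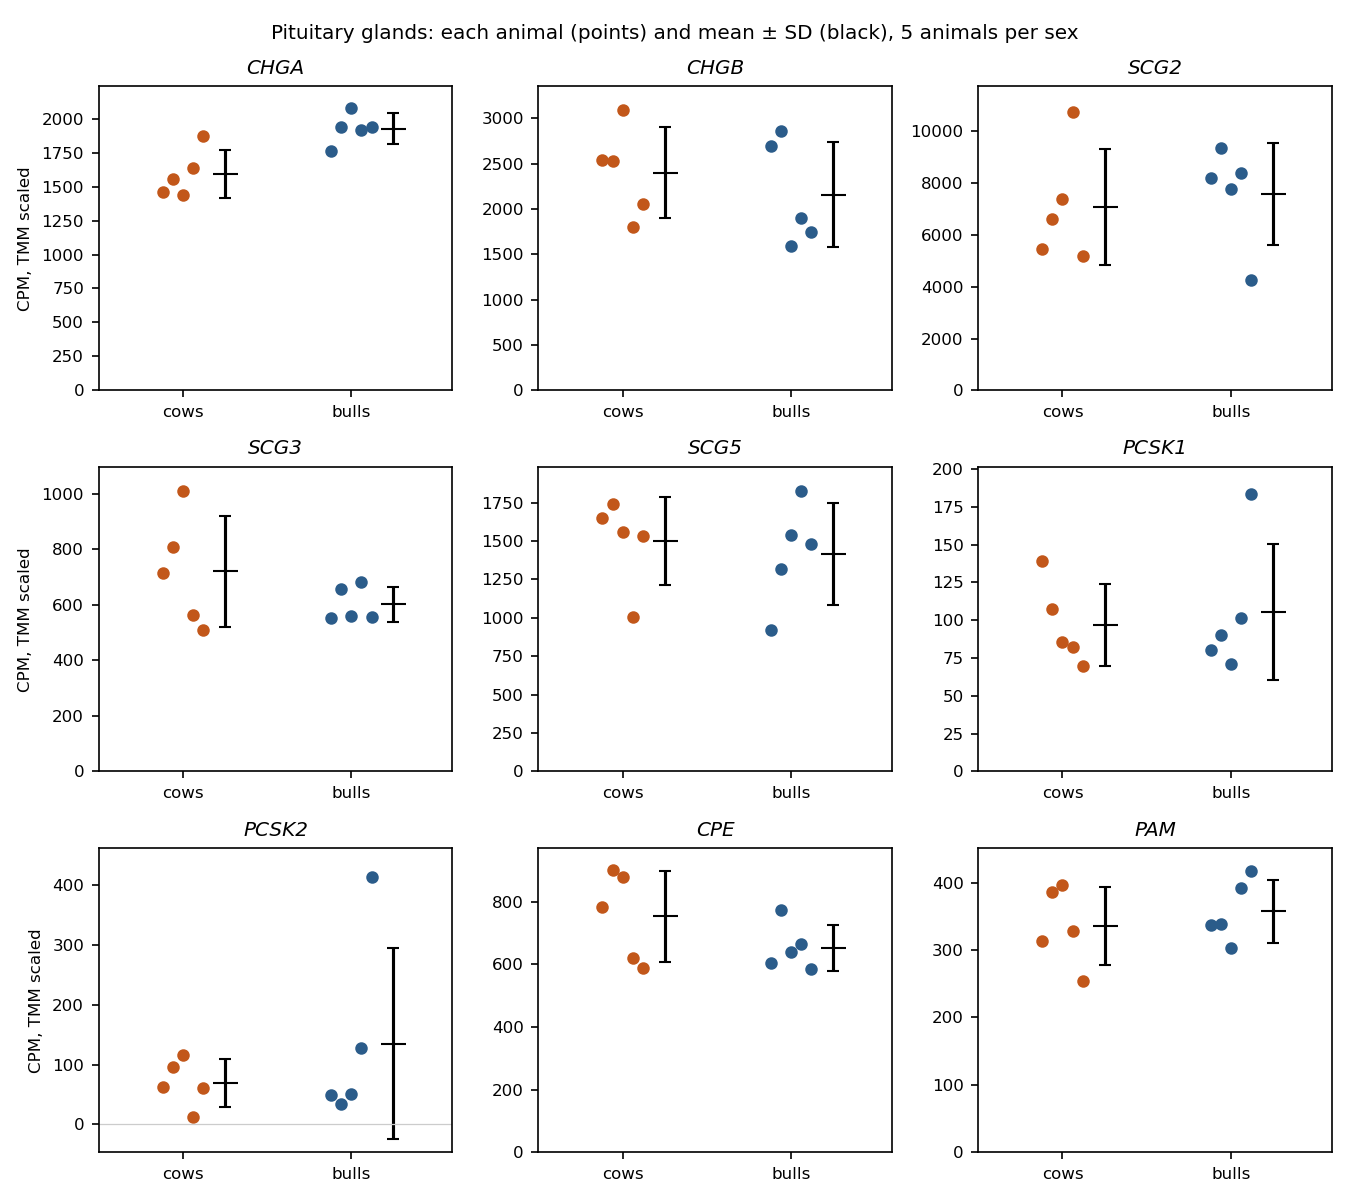
Pituitary levels of the 9 genes as TMM-scaled CPM, 1 point per animal, with the mean ± SD of 5 cows and 5 bulls in black. The sexes overlap in every panel, CHGA has the smallest relative spread (coefficient of variation 12.8%), and bull 5 stands apart for PCSK2 at 414 CPM. The share of all genes with such an overlap was not counted.

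In liver, CHGA (log2 fold change 1.22, SE 0.78, FDR adjusted P-value 0.830 in edgeR), SCG2, PCSK2 (0.97, SE 0.72, 0.884) and SCG5 (0.97, SE 0.55, 0.761) had values higher in bulls that did not pass. These fits kept the liver library labelled bull 3 as male, although it went against its label and was closest to that of cow 4. PCSK1 had 0 to 3 reads in each liver library and is given no fold change. SCG2 was at 1.86, 2.35, 2.82, 12.2 and 2.32 CPM in cows 1 to 5 and 8.44, 24.7, 5.16, 6.01 and 2.17 in bulls 1 to 5, a log2 fold change of 1.14 (SE 0.63, FDR adjusted P-value 0.763 in edgeR). Without cow 4 it was 2.03 and passed the threshold (0.0478), the single such call among the settings that left out 1 animal. The same animals were high for PRL, which was 182 CPM in the liver of cow 4 and 311 in that of bull 2; the part of PRL-bearing reads in this difference was not tested.

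The convertases were also compared as a ratio within each pituitary gland, which does not depend on library scaling. PCSK1 had 2.19, 1.13, 0.740, 6.98 and 1.15 reads per PCSK2 read in cows 1 to 5, and 1.63, 2.65, 1.39, 0.80 and 0.444 in bulls 1 to 5. Gene lengths were not used, so the ratio compares animals and not the amounts of the 2 transcripts. The log2 ratio of bulls minus cows was −0.56, against SDs of 0.99 in bulls and 1.26 in cows, and the exact two-sided permutation test gave p = 0.484 (n = 5 per sex), where 0.00794 is the smallest the design allows. Leaving out 1 animal at a time moved the difference between −0.86 and −0.05, the latter without cow 4.

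Variation between pituitary glands was then compared among the genes and with the 7 hormone genes, over 99 relations in 10 glands. One passed the adjustment: SCG3 with CPE (Pearson's r 0.914, adjusted permutation p 0.0208; Spearman's rho 0.927, adjusted permutation p 0.0307). The relation kept r 0.874 without cows 2 and 3, 0.899 within sex and 0.954 with library sizes alone. Cow 3 had 1010 CPM of SCG3 and 878 of CPE, and cow 5 had 509.8 and 587, the lowest SCG3. The pituitary libraries also differed in the share of reads assigned to no gene. It was 49.4%, 46.7% and 52.1% in cows 1, 2 and 3 and 46.9% in bull 5. In the other glands it was 33.2% to 41.2%. Cows 1, 2 and 3 and bull 5 also had the highest TMM factors among the glands. The part of this split in the relations between glands, and in the pituitary comparison of the sexes, was not tested.

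PCSK1 and PRL were negatively correlated between glands, with r −0.836 and rho −0.867, which did not pass (adjusted permutation p 0.108 and 0.120), and r was −0.556 without bull 5 and cow 1. With values centred within sex it passed at r −0.909 (adjusted permutation p 0.0233), and with library sizes alone at −0.937 (0.00396). PRL itself took 10.5% to 27.6% of all pituitary reads. The lowest shares were 10.5% in bull 5 and 10.9% in cow 1, the glands highest for PCSK1. Both were among the glands with more reads assigned to no gene.

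PCSK2 and POMC, the precursor of ACTH and of the melanocortins, had r 0.784 and rho 0.588, which did not pass (adjusted permutation p 0.211 and 0.468), and r was 0.354 without bull 5 and cow 4. Those animals were the extremes of both genes: bull 5 had 58536 CPM of POMC and cow 4 had 5263. POMC made up 9.13% of the reads in bull 5 and 0.712% in cow 4. DRD2, listed beside POMC and PAX7 for the intermediate lobe, was at 595 CPM in bull 5 and 388 in cow 4, and at 283 to 706 over all glands. PAX7 had no row, and the levels of POMC and DRD2 alone do not measure the share of that lobe. The posterior lobe and hypothalamic markers AVP, OXT, GFAP and S100B summed to 46.4 to 119 CPM, highest in bull 5. S100B was the largest part in every gland, at 42.8 to 83.7 CPM, while OXT reached no more than 0.958 CPM. The same sum was 301 to 1121 CPM in fat and 33.0 to 168 CPM in muscle, so it is not particular to the posterior lobe. AVP was higher in bulls (log2 fold change 2.49, SE 0.59, FDR adjusted P-value 0.00320 in edgeR) at levels of 0.06 to 1.23 CPM. It passed in DESeq2 (0.0168) but not by the quasi-likelihood test (0.138). The part of the sampled lobes in the PCSK2 levels was not tested.

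**Figure D5:**
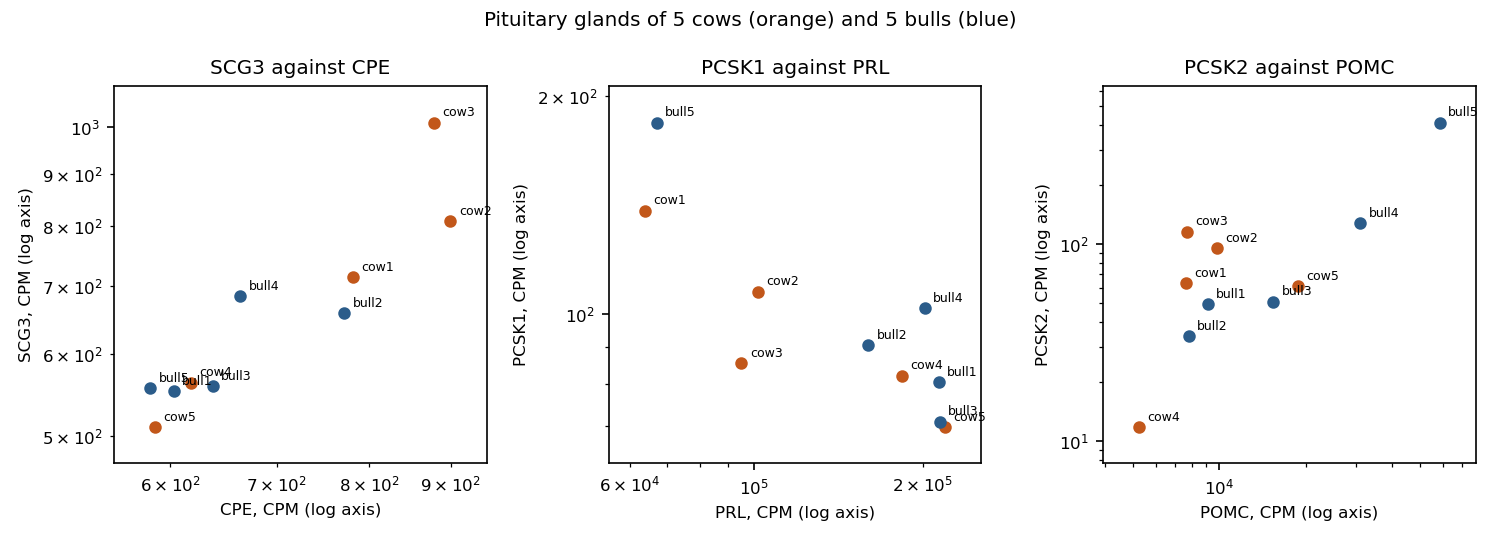
Each point is 1 pituitary gland, with both genes as CPM on log axes: SCG3 against CPE (r 0.914), PCSK1 against PRL (r −0.836) and PCSK2 against POMC (r 0.784). The first relation passed the adjustment over 99 relations; bull 5 is highest for both PCSK1 and PCSK2.

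Other genes of the same pathway were described from fixed lists. Of 32 genes of dense-core vesicle release, 29 were higher in the pituitary gland than in liver, 28 than in fat and 30 than in muscle, beside 35.1%, 32.8% and 32.5% of all genes, and the list's median log2 fold change was 5.60, 3.51 and 4.37. PTPRN, a membrane protein of dense-core granules, had log2 fold changes of 10.65 (SE 0.44), 10.67 (SE 0.40) and 10.76 (SE 0.47). CADPS, which primes vesicles for release, had 10.29 (SE 0.64) over liver, and SNAP25, a SNARE protein of the plasma membrane, 9.82 (SE 0.39). SV2B, a vesicle glycoprotein, was lower than in muscle (−3.98, SE 0.57), and CADPS2 was lower than in liver (−0.59, SE 0.21).

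Over all tested genes, 29.4%, 31.8% and 31.5% were lower in the pituitary gland than in liver, fat and muscle, beside the shares higher given above. Of 14 other convertases and peptidases, 6 were higher and 4 lower than in liver, 6 and 7 against fat, and 9 and 4 against muscle. PCSK1N, the inhibitor of PCSK1 also called proSAAS, was higher by 7.25 (SE 0.41), 7.53 (SE 0.40) and 8.50 (SE 0.50) on the log2 scale, with 195 ± 85.7 CPM (SD, n = 10) in the pituitary gland. FURIN, the convertase of the constitutive pathway, was lower by −3.10 (SE 0.28), −1.07 (SE 0.28) and −1.63 (SE 0.28). Of 6 genes of copper and ascorbate supply, on which PAM depends, 3 were higher and 2 lower than in liver, 3 and 0 against fat, and 3 and 1 against muscle. CYB561, which passes electrons into the granule to regenerate ascorbate, was higher by 5.66 (SE 0.28), 2.43 (SE 0.25) and 3.93 (SE 0.26). SLC31A1, a copper importer, was lower than in liver (−2.49, SE 0.23). Of 7 neuroendocrine regulators, 4 were higher and 2 lower than in liver, 6 and 0 against fat, and 3 and 3 against muscle. Against liver, INSM1, a transcription factor of endocrine cells, was higher by 10.64 (SE 0.69), and REST, a repressor of neuronal genes, was lower (−2.12, SE 0.28).

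The same lists were read for sex. In the pituitary gland, where 0.745% of all genes passed, 1 of 14 convertases and peptidases did, CPXM2, a carboxypeptidase-like protein, higher in bulls by 1.41 (SE 0.22, FDR adjusted P-value 3.67e-07 in edgeR). Of the 7 hormone genes, CGA, the common subunit of the glycoprotein hormones, was higher in bulls by 1.84 (SE 0.44, 0.0125). CPXM2 also passed the quasi-likelihood test (0.0103) and CGA did not (0.242). Both passed in DESeq2 (2.91e-07 for CPXM2 and 0.00499 for CGA). In M2, where 1.69% of all genes passed, 2 of the 32 vesicle genes were lower in bulls, RAB3C (−1.21, SE 0.35, FDR adjusted P-value 0.0353) and HID1 (−0.51, SE 0.14, 0.0353). Of the convertases and peptidases, CTSL1, a cathepsin, was lower in bulls (−1.07, SE 0.30, 0.0325), and of the hormone genes CGA was higher (1.20, SE 0.34, 0.0432). All 4 passed M2 in DESeq2 (0.0263 to 0.0349). None of these 4 passed M2 by the quasi-likelihood test (0.0644 to 0.0820) or with the animal as a replicate block in voom (0.293 to 0.397).

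The genes whose levels over the 40 libraries were most like those of PAM, CPE and the granins were also sought among 10946 genes. Likeness was Pearson's r of log2(CPM + 1), a description in which tissue differences dominate. PAM was closest to KIAA1324L (r 0.914) and ZNF323 (0.905), CPE to SYT11 (0.979) and MAGED4B (0.967), and the mean of the granins to SEZ6L2 (0.997), SYT13 (0.996) and NEFL (0.995).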

How the data were processed

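The authors trimmed the reads with Trimmomatic, aligned them to bosTau7 with Bowtie2 within TopHat2, and counted uniquely aligned reads per gene symbol with HTSeq. The deposited values are raw read counts, 1 table per library, with no normalization. Counting mode and strandedness are not given in the sources used here. A row without a gene name, 0.114% to 2.69% of the reads, was left out.

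Every gene counted in any library entered the fits, made with edgeR 4.0.16 under R 4.3.3, with TMM factors and a prior count of 0.125. Sex was tested with the likelihood ratio test (M1, M2 and the interaction) and tissues with the quasi-likelihood test, with Benjamini-Hochberg adjustment over 13148 genes. DESeq2 1.42.0 and limma 3.58.1 served as alternatives. Intervals of fold changes are 1.96 SE to each side; intervals of read ratios are 95% exact ones. The floor was 3 reads per library, which is 0.157 to 0.580 CPM before TMM scaling. Correlations used 100000 permutations. The fits were tested on simulated data.

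Named genes were all 9 genes of the set and, in other lists, those with the largest changes past the threshold, up to 3 per direction. Genes without a read in all libraries of a tissue were given no fold change. These genes and lists were chosen with earlier results of these data known. Animals were matched across tissues by the animal number in the library titles. Over 60 pairs of tissues of the same animal, deviations from the group means had a median r of 0.208 (−0.450 to 0.560), with 38 pairs over 0.1. In tests within 1 tissue, P-values measure the spread between animals. Those of M2, the interaction and the tissue comparisons treat the 40 libraries as independent, although each animal gave 1 library per tissue.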

Additional observations from a re-analysis of the deposited data

Results flagged for a closer look

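There were 65 groups of 5 animals with more than 3 reads in a library. In 9 of them, an animal's gap to the nearest other exceeded 0.71 of the group's range (Dixon's criterion). Chance gives about 1 in 20 for independent, normally distributed values. The values here were unlogged CPM and the groups shared animals, so 9 of 65 cannot be set against that rate. In the livers of bulls, bull 2 was highest for CHGA (4.30 CPM, the others 0.189 to 1.17), SCG2 (24.7 CPM, the others 2.17 to 8.44) and SCG3 (1.97 CPM, the others 0.143 to 0.189). Bull 2 also had the highest summed level of pituitary markers among the livers, 388 CPM. Cow 4 was highest for SCG2 in the livers of cows (12.2 CPM, the others 1.86 to 2.82) and in their muscles (9.61 CPM, the others 2.50 to 4.55), and was the highest cow for those markers in both tissues. In the pituitary gland, cow 4 was lowest for SCG5 among cows (1007 CPM, the others 1533 to 1742), and bull 5 was highest among bulls for PCSK1 (184 CPM, the others 70.9 to 102) and PCSK2 (414 CPM, the others 34.1 to 127). Cow 1 was highest for CPE in the muscles of cows (41.8 CPM, the others 7.68 to 12.3). Its 5 fat markers summed to 205 CPM there, against 799 in the muscle of cow 5. The cause of these values was not tested.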

How the results depend on the processing

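The 0 of 9 sex calls held under the quasi-likelihood test, DESeq2, RLE factors, library sizes alone and filterByExpr. The 9 of 9 pituitary calls held under the likelihood ratio test and the same other alternatives. With the replicate block, the pituitary calls and the 0 of 9 in M2 held. Leaving out either single library, chosen after seeing the data, changed neither the pituitary calls nor the 0 of 9 in M2 and the interaction. Leaving out each animal in turn gave 0 to 1 calls of 9 in liver by sex and 2 to 4 in fat against muscle. The number of sex DEGs over all genes was less stable. With each animal left out it was 10 to 187 in liver, 5 to 22 in fat, 25 to 553 in muscle, 54 to 231 in the pituitary gland, 57 to 714 in M2 and 9 to 197 in the interaction, against 23, 15, 68, 98, 222 and 44. The quasi-likelihood test gave 1, 3, 7, 12, 77 and 0 (922 interactions had an unadjusted p under 0.05), filterByExpr 13 in liver and 6 in fat, DESeq2 28 in fat, library sizes alone 56 in the pituitary gland and 717 in M2, and leaving out the fat library labelled bull 5 74 in the interaction. Correlations between pituitary glands passed in 6 relations with library sizes alone and in 2 when centred within sex, against 1. The male to female log2 fold change in the pituitary gland turned with library sizes alone for SCG2 (−0.0620), PCSK1 (−0.0167) and PAM (−0.0617). Leaving out 1 animal turned it for SCG5 (−0.179 to 0.0484), PCSK1 (−0.166 to 0.290) and PCSK2 (−0.0682 to 1.23). The causes were not tested. Depth limits PCSK1 in liver and PCSK2 in fat and muscle, where no library had more than 3 reads.

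Pairing came from the animals. With the animal as a replicate block in voom, M2 called 8 genes in place of 222 and again 0 of 9. The block changed no call of the 9 genes between tissues.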
